A study of Mus musculus with 8 samples.

Results

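The semaphorins, plexins and neuropilins form a signalling system of 31 protein-coding mouse genes out of the 21866 in the annotation, taken here as every gene whose symbol begins with Sema or Plxn together with Nrp1 and Nrp2. Binding of the transcription factors NFIB, NFIA and NFIX (nuclear factor I family) at these genes was described from chromatin immunoprecipitation followed by sequencing (ChIP-seq) of granule neuron progenitors, the dividing cells of the postnatal cerebellum that give rise to granule neurons, prepared by papain dissociation at postnatal day 7. Each factor had 1 library from mice that the labels describe as a mix resembling outbred CD1 (Mixed) and 1 from CD1 mice, so that the groups were NFIB Mixed, NFIB CD1, NFIA Mixed, NFIA CD1, NFIX Mixed and NFIX CD1. The series has 8 samples, and its 2 input samples were not analysed here. No genotype, treatment or second age distinguishes the groups.

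The antibodies were ab41851 from Abcam for NFIA and SAB1401263 from Sigma Aldrich for NFIX. The NFIB antibody is not settled, since the labels give one from Novus Biologicals and the design text one from Sigma (HPA003956). The labels do not say whether libraries of a factor came from separate animals or cultures. Peak lists hold no expression values, so the labelled cell type could not be checked against marker genes. The libraries were made from bulk chromatin, in which binding in fewer cells and weaker binding per cell cannot be told apart.

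Semaphorins are extracellular guidance ligands: class 3 members are secreted, the transmembrane classes span the membrane and Sema7a is held by a lipid anchor. Plexins are their transmembrane receptors, and neuropilins are co-receptors that most class 3 semaphorins need to reach class A plexins. In mice, the ligand Sema6a and its receptor Plxna2 act in the migration of cerebellar granule cells, and the receptor Plxnb2 in the proliferation and migration of their progenitors.

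A region was assigned to one of these genes when it overlapped the gene body, or when the closest protein-coding transcription start site (TSS) within 100 kb was that of the gene. Merging all peaks of the 6 lists with 1 bp or more in common gave 46070 regions, and 206 of them were assigned to the 31 genes. Of these, 140 lay in gene bodies and 66 were assigned by the closest TSS alone. No region was shared by 2 of the genes, but 15 were also assigned to another protein-coding gene. A region with a peak in all 6 libraries is called common. The fold of a peak is the authors' enrichment over local background at its summit, used here to rank peaks within a list. Folds of different libraries are set side by side as a description only, since the lists differ in length and depth. With 2 libraries per factor the smallest p that an exact permutation test of 1 factor against another can give is 0.333, so no test was run, and counts are set beside the same counts over all genes or regions.

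The sequence under some regions can be read from annotated transcripts. NFI proteins bind as dimers to a palindrome of the arms TTGGC and GCCAA set 5 bases apart, and TTGGCA was searched as a single element. The sequences below are on the mm10 build, in lower case with TTGGCA or its reverse complement TGCCAA in capitals. They are shown because the first pair belong to common regions, the others to regions at Plxna2 and Plxnb2 with such an element near the summit. The Nrp2 stretch (chr1:62811203-62811452, plus strand) lies in intron 15, and the Plxna4 stretch (chr6:32224348-32224597, minus strand) in intron 9. The Plxna2 intronic stretch is chr1:194658666-194658915 (plus strand).
Nrp2 region: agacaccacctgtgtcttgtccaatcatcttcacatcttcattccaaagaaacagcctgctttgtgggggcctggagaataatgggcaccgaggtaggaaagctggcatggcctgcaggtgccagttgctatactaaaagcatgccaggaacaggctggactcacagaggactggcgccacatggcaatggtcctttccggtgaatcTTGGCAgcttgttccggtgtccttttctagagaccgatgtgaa
Plxna4 region: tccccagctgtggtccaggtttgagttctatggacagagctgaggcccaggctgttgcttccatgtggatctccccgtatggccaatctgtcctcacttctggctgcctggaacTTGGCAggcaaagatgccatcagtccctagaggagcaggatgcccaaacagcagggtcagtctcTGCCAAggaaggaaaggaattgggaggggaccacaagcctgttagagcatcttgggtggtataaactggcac
Plxna2 region: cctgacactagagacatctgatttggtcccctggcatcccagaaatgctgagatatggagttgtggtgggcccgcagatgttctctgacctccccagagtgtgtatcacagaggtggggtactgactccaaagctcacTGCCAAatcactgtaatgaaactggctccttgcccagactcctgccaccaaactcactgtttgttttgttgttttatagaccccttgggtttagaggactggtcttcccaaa
Plxna2 UTR site: acactgcacaacTGCCAAatctgtaatctc
Dennd6b UTR site: tctttccatccaTGCCAAgggcagagcctg
The Plxna2 UTR site (chr1:194815802-194815831, plus strand) is in the 3′ untranslated region of Plxna2. The Dennd6b site (chr15:89182555-89182584, minus strand) is in the 3′ untranslated region of Dennd6b, the gene beside Plxnb2, and its region was assigned to Plxnb2 by the closest TSS. All 5 sequences were read from GENCODE transcripts.

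In the Plxna4 region the summits of the 6 libraries lay 6 to 65 bp from one of the capitalised elements and 30 to 129 bp from the other. The element of the Nrp2 region was farther away, 81 to 101 bp from the summits. In the Plxna2 intron, summits of NFIB Mixed, NFIB CD1 and NFIX CD1 lay 10 to 75 bp from the capitalised element. Other TTGGCA elements of that region, outside the stretch shown, lay 143 to 208 bp and 204 to 269 bp from the summits. The folds there were 4.10, 8.99 and 3.84 in the same order, with 9 fragments at the NFIX CD1 summit. The other libraries had no peak in it. The Plxna2 UTR site was 7 to 51 bp from the summits of 4 libraries, and the Dennd6b site 5 to 60 bp from those of 5. Only 18 of the 206 regions had a complete 101 bp summit window in annotated sequence, 2 of them common.

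Both strands of these windows were searched. TTGGCA was found in 6 of 18 windows (33.3%), among them windows at Plxna4, Plxnb2, Plxna2 (2 windows) and Nrp2 (in an exon of Pard3b), against 18.7% of the 4288 windows of all regions. Neither the palindrome nor its shorter form (TGGC and GCCA, set 5 bases apart), which was added after the data had been seen, was found in the 18 windows. They were present in 0.910% and 5.85% of all windows. The E-box CAGCTG, its own reverse complement, was found in 4 of 18 windows (22.2%) against 14.4% of all windows, and the E-box CAGATG in 3 of 18 (16.7%) against 16.7%. A TTGGCA match can lie inside a longer palindrome, and a match is a description of the letters only. The windows lie in exons of some transcript or in RefSeq promoter sequence, which makes them a narrow sample of the regions.

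Of the 31 genes, 27 had at least 1 region (87.1%), where 48.6% of all protein-coding genes had one. The 4 without any were Plxna3, a receptor for class 3 semaphorins, Plxnb1, the receptor for Sema4d, and the transmembrane ligands Sema4g and Sema6b. A common region was assigned to 11 genes (35.5%), against 13.2% of all protein-coding genes, and these 11 held 24 common regions. They were the secreted ligands Sema3a (1 common region) and Sema3d (4), the transmembrane ligands Sema4d (1), Sema5a (2), Sema5b (1), Sema6a (2) and Sema6d (3), the receptors Plxna1 (1), Plxna2 (3) and Plxna4 (4), and the co-receptor Nrp2 (2). The other 16 genes had regions of 1 to 5 libraries.

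These genes are long. Their median length was 40.2 kb (range 9.711 to 577.8), against 17.4 kb for all protein-coding genes. Among genes of 100 kb or more, 10 of the 14 semaphorin, plexin and neuropilin genes had a common region, against 45.8% of all genes of that length. The exceptions were Nrp1, Plxnc1, Sema3c and Sema3e. From 20 to under 100 kb it was 1 of 9 (Plxna1) against 13.6%, and under 20 kb 0 of 8 against 6.05%. Per megabase of gene body there were 35.8 regions and 4.35 common regions in the 31 genes, and 23.1 and 2.67 in all protein-coding genes. How far length sets the count of genes with a common region was not tested.

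**Figure D1:**
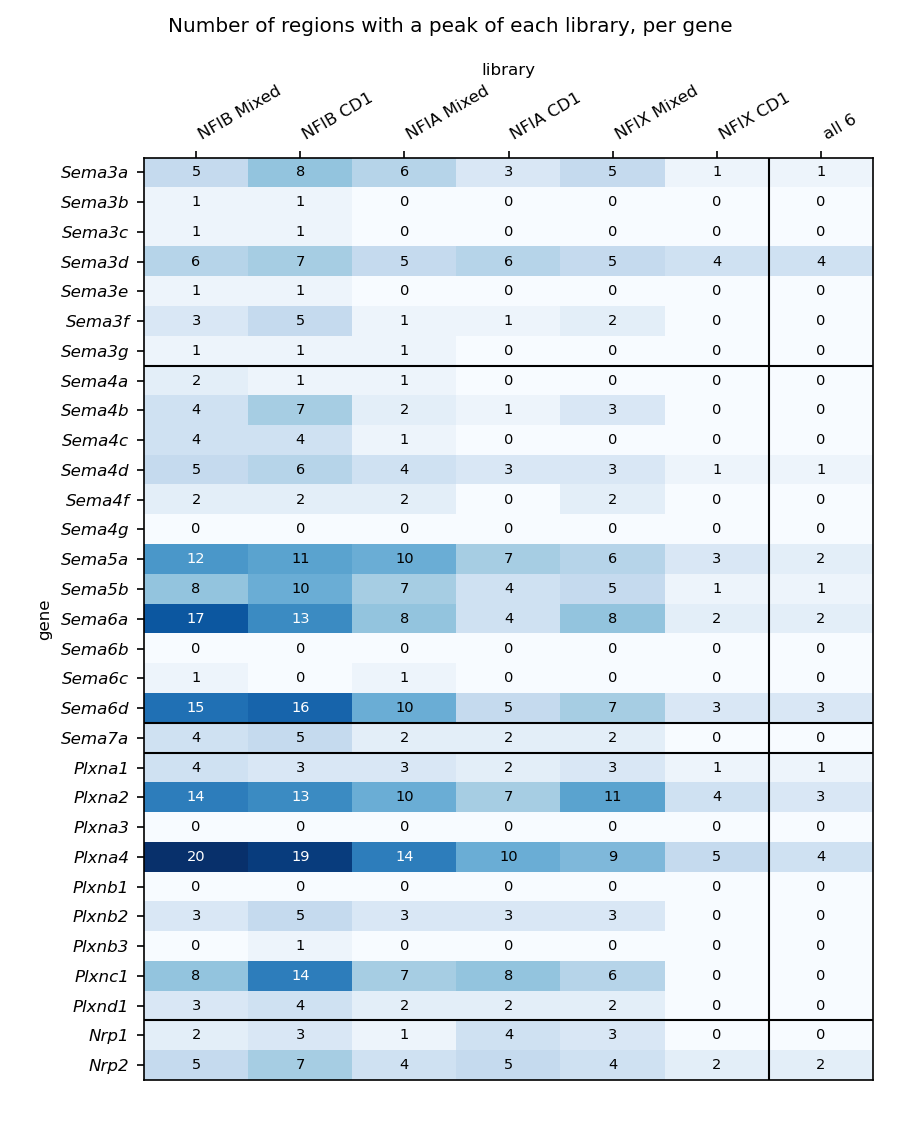
Number of regions with a peak of each library (columns) at each of the 31 genes (rows), with the number of common regions in the last column and lines between secreted, transmembrane and GPI-anchored semaphorins, plexins and neuropilins. Plxna4, Sema6a and Sema6d had the most NFIB Mixed regions (20, 17 and 15), and the NFIX CD1 column is at 0 for every gene without a common region.

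The transmembrane semaphorins had 94 regions at 10 of 12 genes, 9 of them common. The plexins had 68 regions at 7 of 9 genes, 8 of them common, and the secreted semaphorins 26 regions at 7 of 7 genes, 5 of them common. The 2 neuropilins had 13 regions, 2 of them common, and Sema7a had 5, none common. Within the plexins, class A genes held 43 regions and all 8 common ones. The 3 class B genes held 6 regions, Plxnc1 15 and Plxnd1 4, with no common region among them. Within the transmembrane semaphorins, class Sema5 (2 genes) had 28 regions, 3 of them common. Class Sema6 (4 genes) had 43 regions, 5 of them common, and class Sema4 (6 genes) 23, 1 of them common. These counts are not scaled to gene length, which differed between the classes. The longest Sema4 gene was 108 kb (Sema4d), while Sema5a was 452 kb and Sema6d 578 kb. Among the plexins, Plxna4 was 444 kb, Plxnc1 154 kb and the longest class B gene, Plxnb2, 25.2 kb.

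Sema3a encodes the secreted ligand best known for the collapse of growth cones. Its only common region (chr5:13150815-13151412) lay inside the annotated gene but outside its protein-coding transcripts, 246 kb from the closest coding TSS. The folds there were 13.9 (Mixed) and 17.5 (CD1) for NFIB, 14.7 (Mixed) and 16.2 (CD1) for NFIA, and 16.9 (Mixed) and 11.8 (CD1) for NFIX. With a mean within-list percentile of 96.4 it was the highest-ranked of the 24 common regions, and the Mixed and CD1 folds overlapped. The median of this percentile was 79.4 over the 24 and 75.8 over all 6062 common regions of the series. The 9 other Sema3a regions reached at most 5 libraries.

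Sema3d, another secreted class 3 ligand, had 4 common regions among its 7. The highest-ranked (chr5:12474792-12475356, intron 3, 91.6 kb from the closest TSS) had folds of 13.8 (Mixed) and 19.3 (CD1) for NFIB, 15.9 (Mixed) and 11.95 (CD1) for NFIA, and 13.8 (Mixed) and 9.37 (CD1) for NFIX. Its mean percentile was 94.3, and NFIB CD1 was highest and NFIX CD1 lowest. The others lay 5.945 kb upstream of the closest TSS (chr5:12377196-12377692, percentile 81.3), in intron 1 (chr5:12445380-12445826, percentile 80.8) and in intron 10 (chr5:12549324-12549643, percentile 88.1). In that last region the lowest fold, 8.77, was in NFIB Mixed and the highest, 13.9, in NFIA Mixed.

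The remaining secreted ligands had fewer regions and none common. Sema3f, a ligand of Nrp2, had 5 regions of up to 4 libraries with folds of 3.01 to 6.09. Sema3b, Sema3c and Sema3e had 1 region each, seen in both NFIB libraries only, with folds of 2.11 and 2.44, 4.18 and 5.97, and 3.11 and 5.42 in NFIB Mixed and NFIB CD1. Sema3g had 1, at its promoter.

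Among the transmembrane ligands, Sema4d, which binds Plxnb1, had 1 common region 12.1 kb upstream (chr13:51805656-51806152). Its folds were 13.1 (Mixed) and 12.8 (CD1) for NFIB, 9.60 (Mixed) and 10.02 (CD1) for NFIA, and 12.7 (Mixed) and 6.15 (CD1) for NFIX, for a mean percentile of 84.9. The NFIX CD1 fold was below the other 5. The Plxnb1 gene itself had no region in any library.

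Sema5a and Sema5b encode transmembrane semaphorins with thrombospondin repeats. At Sema5a the highest-ranked common region (chr15:32458910-32459574, intron 3, 214 kb from the closest TSS) had folds of 12.9 (Mixed) and 14.9 (CD1) for NFIB, 12.01 (Mixed) and 8.97 (CD1) for NFIA, and 14.3 (Mixed) and 5.67 (CD1) for NFIX, with a mean percentile of 84.2. The NFIA CD1 and NFIX CD1 folds were below the other 4. A second lay in intron 5 (chr15:32496800-32497385, percentile 64.5). Sema5a had 16 regions in all. The Sema5b common region (chr16:35652107-35652719, intron 11) had folds of 8.87 (Mixed) and 9.97 (CD1) for NFIB, 8.29 (Mixed) and 4.33 (CD1) for NFIA, and 5.05 (Mixed) and 4.54 (CD1) for NFIX. Both NFIB folds and the NFIA Mixed fold were above the other 3. Its mean percentile was 51.7, but the region was near the middle of no list. The percentiles were 81.3 (Mixed) and 83.4 (CD1) for NFIB, 81.9 (Mixed) and 16.6 (CD1) for NFIA, and 31.0 (Mixed) and 16.1 (CD1) for NFIX.

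Sema6a, a ligand of Plxna2 and Plxna4, had 19 regions, 2 of them common. The higher-ranked (chr18:47434889-47435415) lay 66.3 kb upstream, within the long noncoding RNA gene AC141639.1. Its folds were 14.2 (Mixed) and 12.6 (CD1) for NFIB, 11.02 (Mixed) and 9.09 (CD1) for NFIA, and 11.8 (Mixed) and 6.40 (CD1) for NFIX, with a mean percentile of 85.3. For each factor the Mixed fold was the higher one. The second lay 65.1 kb from the closest TSS downstream of the gene, inside Commd10 (chr18:47215875-47216400, percentile 55.7). A neighbour of the second (chr18:47225941-47226706), also inside Commd10, had folds of 14.9 in NFIB Mixed, 16.3 in NFIB CD1, 7.78 in NFIA Mixed, 7.96 in NFIA CD1 and 9.09 in NFIX Mixed, with no peak in NFIX CD1.

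Sema6d, a transmembrane ligand that binds Plxna1, is the longest of the 31 genes and had the most regions, 23. Its best common region (chr2:124524096-124524674, intron 5) had folds of 18.1 (Mixed) and 9.75 (CD1) for NFIB, 12.2 (Mixed) and 5.97 (CD1) for NFIA, and 11.9 (Mixed) and 4.68 (CD1) for NFIX. In this region all 3 Mixed folds were above all 3 CD1 folds, and the mean percentile was 73.1. The other common regions were also intronic (chr2:124641002-124641597 and chr2:124298230-124298752).

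The other Sema4 and Sema6 ligands had no common region. Sema4b had 7 regions, Sema4c 6, Sema4a and Sema4f 2 each and Sema6c 1. The widest-shared of these was in intron 1 of Sema4b (chr7:80192259-80192789), with folds of 3.72 to 5.94 in 5 libraries and none in NFIX CD1. All Sema4c regions had 1 or 2 libraries and folds of 2.63 to 4.94.

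**Figure D2:**
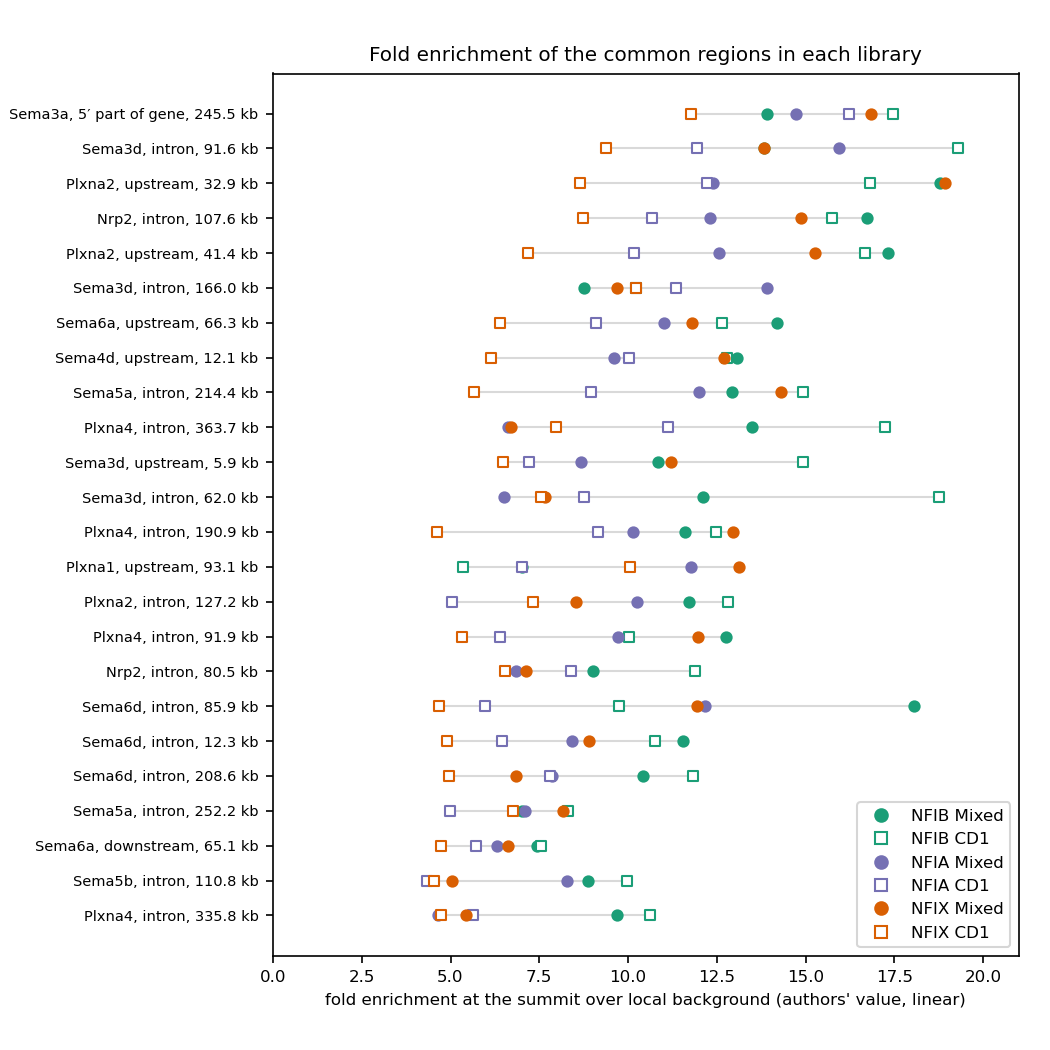
Authors' fold enrichment (linear axis) of each of the 24 common regions in each library, ordered by mean within-list percentile from top to bottom; filled circles are Mixed, open squares CD1, and colours mark the factor. Labels give the distance to the closest TSS of the gene. NFIX CD1 has the lowest fold in 16 of the 24 regions and the highest in none.

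Among the receptors, Plxna2, through which Sema6a acts on granule cells in mice, had 17 regions. A common region 32.9 kb upstream (chr1:194586666-194587219) had folds of 18.8 (Mixed) and 16.8 (CD1) for NFIB, 12.4 (Mixed) and 12.2 (CD1) for NFIA, and 18.9 (Mixed) and 8.65 (CD1) for NFIX, with a mean percentile of 94.3. NFIB Mixed and NFIX Mixed were highest there and NFIX CD1 lowest. A second, 41.4 kb upstream (chr1:194578185-194578809, percentile 90.9), held these numbers of fragments at its summit: 185 (Mixed) and 171 (CD1) for NFIB, 123 (Mixed) and 74 (CD1) for NFIA, and 110 (Mixed) and 48 (CD1) for NFIX. The third lay in intron 5 (chr1:194746538-194747293, percentile 75.8).

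Plxna4, a receptor of Sema3a and of Sema6a, had 22 regions and 4 common ones, all intronic. The highest-ranked was the intron 9 region shown above (chr6:32224177-32224752), with folds of 13.5 (Mixed) and 17.2 (CD1) for NFIB, 6.62 (Mixed) and 11.1 (CD1) for NFIA, and 6.71 (Mixed) and 7.98 (CD1) for NFIX, and a mean percentile of 81.7. Here both NFIB folds were above the other 4, and for each factor the CD1 fold was the higher one. The closest TSS to this region, and to a second one in intron 4 (chr6:32252218-32252625), was that of 1700012A03Rik. The other common regions were in intron 3 (chr6:32495984-32496629 and chr6:32397088-32397915).

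At Plxna1, a class A receptor, the only common region lay 93.1 kb upstream, inside the body of Chchd6 (chr6:89455514-89455931). Its folds were 7.01 (Mixed) and 5.34 (CD1) for NFIB, 11.8 (Mixed) and 7.01 (CD1) for NFIA, and 13.1 (Mixed) and 10.05 (CD1) for NFIX, with a mean percentile of 76.2. Both NFIX folds were above both NFIB folds, which held at no other of the 24.

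Receptors outside class A had no peak in NFIX CD1, a library with a region at 15.5% of all protein-coding genes. The class A receptor Plxna3 had none either. Plxnc1, the receptor of Sema7a, had 15 regions, 5 of which had a peak in every library but NFIX CD1. The highest-ranked of these, 69.3 kb upstream (chr10:95013927-95014335), had folds of 7.39 in NFIB Mixed, 10.1 in NFIB CD1, 7.14 in NFIA Mixed, 5.97 in NFIA CD1 and 5.28 in NFIX Mixed. Plxnb2 had 3 such regions, Plxnd1, the receptor of Sema3e, had 2, and Sema7a had 1. Class A receptors also had them, 3 each at Plxna2 and Plxna4 and 1 at Plxna1. Plxnb3 had a single peak, of NFIB CD1, with a fold of 5.16.

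The co-receptor Nrp2, which serves Sema3f, had 7 regions. Its higher-ranked common region was the intron 15 region shown above (chr1:62811012-62811662), with folds of 16.7 (Mixed) and 15.7 (CD1) for NFIB, 12.3 (Mixed) and 10.7 (CD1) for NFIA, and 14.9 (Mixed) and 8.73 (CD1) for NFIX, and a mean percentile of 93.02. The NFIX CD1 fold was the lowest here too. The summit held 142 (Mixed) and 135 (CD1) fragments for NFIB, 103 (Mixed) and 67 (CD1) for NFIA, and 91 (Mixed) and 50 (CD1) for NFIX. The annotated transcript Gm37121 also covers this region. The other was in intron 13 (chr1:62783918-62784463, percentile 74.8). Nrp1, the co-receptor of Sema3a, had 6 regions and none in NFIX CD1. The Nrp1 regions with most libraries, 4 each, lay 97.7 kb (chr8:128261366-128261779) and 2.18 kb (chr8:128356969-128357274) upstream.

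**Figure D3:**
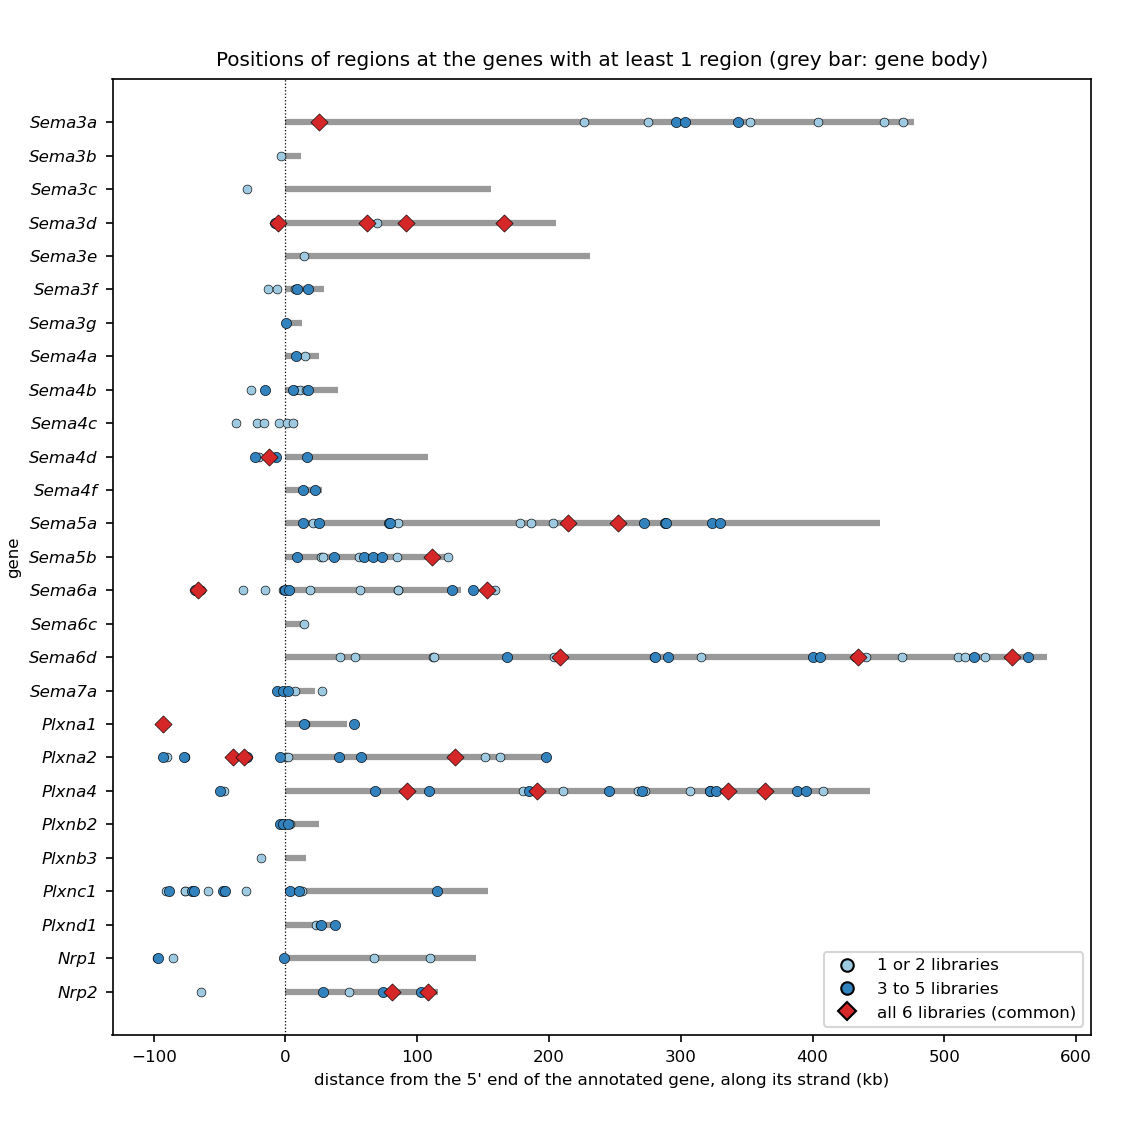
Position of every region relative to the annotated 5′ end of its gene, in kb along the gene's strand, for the 27 genes with a region; grey bars are gene bodies, pale and dark circles are regions with 1 or 2 and 3 to 5 libraries, and red diamonds are common regions. Of the 24 red diamonds 17 lie inside gene bodies, and none is within 5 kb of a coding TSS of its gene.

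Introns held 125 of the 206 regions (60.7%), against 50.5% of the 39196 assignments of regions to any protein-coding gene by the same rule, in which a region with several genes counts once for each. Sequence upstream of the gene held 59 (28.6%, against 22.3%), downstream sequence 7 (3.40%, against 12.2%) and promoters 8 (3.88%, against 10.4%). Coding exons held 3, untranslated regions 2 and gene bodies outside coding transcripts 2. Of the 24 common regions 16 were in introns (66.7%, against 55.0% of all assignments of common regions), 6 upstream (25.0%, against 24.7%) and none at a promoter (3.26%). Intron 1 held 33 of the 125 intronic regions (26.4%, against 30.03%), intron 3 held 23 (18.4%, against 10.6%) and intron 5 held 18 (14.4%, against 4.91%). Most of the intron 5 regions lay in Sema6d alone, and the gene with most intron 3 regions was Plxna4. Of the 16 common intronic regions 1 was in intron 1 and 4 each were in introns 3 and 5.

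The median distance to the closest TSS of the gene was 48.7 kb for the 206 regions (0.083 to 408), against 30.5 kb for all assignments. For the common regions it was 92.5 kb (5.945 to 364), against 38.6 kb. None of the 24 common regions was within 5 kb of that TSS, against 10.05% of all assignments of common regions, and 36 of the 206 were (17.5%, against 19.1%). Regions in one long gene share their intron and their distance scale, and the length of these genes moves with these distances. Its part in them was not tested.

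A promoter peak, with its summit within 1 kb of a coding TSS, was found in at least 1 library at 7 genes, where 16.7% of all protein-coding genes had one. Both NFIB libraries had one at 6 genes, Plxna2, Plxnd1, Sema3g, Sema4c, Sema6a and Sema6d, against 9.14% of all genes. None had one in both NFIA libraries (2.78% of all genes), in both NFIX libraries (0.782%) or in all 6 (0.691%). The promoter peaks of Sema6d (chr2:124653187-124653499), Plxnd1 (chr6:115968748-115969120) and Sema4b (chr7:80197861-80198113) lie at coding TSSs inside the gene. The annotated 5′ ends of these genes are chr2:124089969, chr6:115995005 and chr7:80186841. Every promoter fold was below the median fold of the common regions in the same library. At Sema6d they were 6.63 in NFIB Mixed, 4.93 in NFIB CD1 and 5.72 in NFIX Mixed. At Sema6a they were 4.72 in NFIB Mixed, 3.99 in NFIB CD1, 2.96 in NFIA Mixed and 2.89 in NFIX Mixed, and at Plxna2 3.96 in NFIB Mixed and 2.60 in NFIB CD1. Sema3g had folds of 3.76 in NFIB Mixed, 5.61 in NFIB CD1 and 3.67 in NFIA Mixed. Plxnd1 had 2.69 and 5.67 in NFIB Mixed and NFIB CD1, Sema4c 3.03 and 3.71, and Sema4b 4.62 in NFIB CD1 alone. Promoter windows of Sema6d (chr2:124653331-124653630, plus strand) and Plxna2 (chr1:194619579-194619878, plus strand), from 250 bases before to 50 after the start, overlap these peaks and are shown from the RefSeq table on GRCm38.p6. Neither window contains any of the motifs searched, so no letter is in capitals. The Plxna2 window holds no summit: that of the peak region lies at position 194619916, past its end, and the 101 bp around that summit hold 2 CAGCTG matches, also past the end.
Sema6d promoter: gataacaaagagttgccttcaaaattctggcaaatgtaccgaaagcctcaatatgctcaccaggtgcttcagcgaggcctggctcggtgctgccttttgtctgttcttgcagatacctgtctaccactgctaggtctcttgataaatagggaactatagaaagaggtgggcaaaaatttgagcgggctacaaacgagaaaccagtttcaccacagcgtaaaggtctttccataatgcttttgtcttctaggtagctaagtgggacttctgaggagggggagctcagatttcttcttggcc
Plxna2 promoter: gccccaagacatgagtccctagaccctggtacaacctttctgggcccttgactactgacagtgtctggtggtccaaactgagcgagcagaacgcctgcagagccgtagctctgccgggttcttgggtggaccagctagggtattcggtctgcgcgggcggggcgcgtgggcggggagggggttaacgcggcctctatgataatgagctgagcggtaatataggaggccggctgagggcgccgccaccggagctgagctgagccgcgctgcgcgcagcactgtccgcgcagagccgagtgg
Over the 37 promoter windows of 26 of the 31 genes that the table holds, TTGGCA was found in 1 (2.70%, Sema4b), against 14.1% of all 32851 windows. Neither palindrome was found in the 37, against 0.0365% of all windows for the longer and 0.807% for the shorter form. CAGCTG was found in 6 (16.2%) against 16.3%, and CAGATG in 2 (5.41%) against 17.2%. The absence of these letters from a window of 300 bases says nothing of binding elsewhere.

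The lists differed in length, from 36431 peaks in NFIB CD1 to 7497 in NFIX CD1, and so did the count of regions at these genes. The NFIB lists had 151 regions at 26 of the 31 genes (Mixed) and 168 at 26 (CD1), the NFIA lists 105 at 23 (Mixed) and 77 at 18 (CD1), and the NFIX lists 89 at 19 (Mixed) and 27 at 11 (CD1). Over all protein-coding genes the shares with a region were 41.3%, 42.2%, 34.1%, 26.4%, 31% and 15.5% in the same order. As a share of the whole list, the peaks at these genes were 0.460% (Mixed, 95% Wilson interval 0.393 to 0.538) and 0.467% (CD1, 0.402 to 0.542) for NFIB, 0.463% (Mixed, 0.384 to 0.558) and 0.471% (CD1, 0.378 to 0.585) for NFIA, and 0.424% (Mixed, 0.346 to 0.521) and 0.360% (CD1, 0.248 to 0.523) for NFIX. These intervals overlapped for all 6 libraries and cover counting error only. The median fold at these genes was 5.23 to 6.40 over the libraries, against 5.51 to 6.03 for the whole lists. The median summit there held 21.5 to 29.5 fragments, against 21 to 28 in the whole lists, as recovered from the deposited fold and p.

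**Figure D4:**
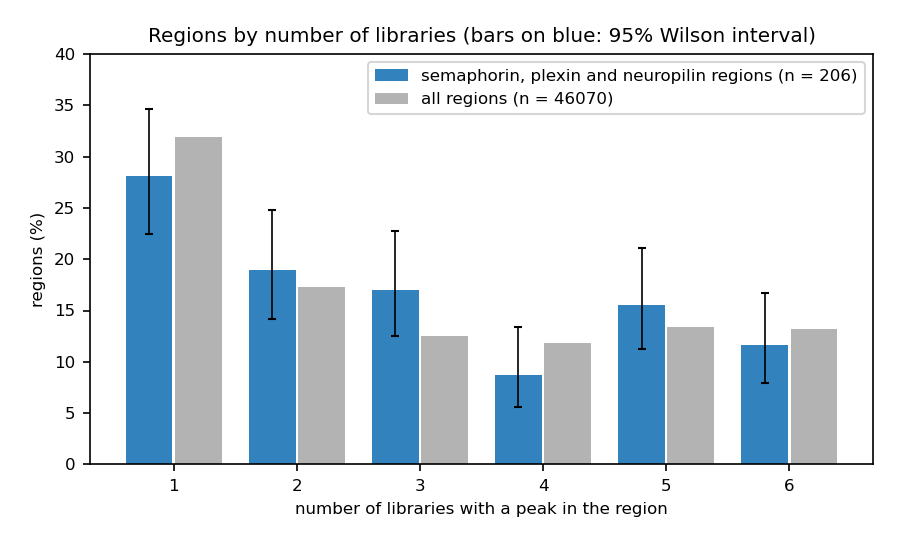
Share of regions (percent) by the number of libraries with a peak, for the 206 regions at semaphorin, plexin and neuropilin genes (blue, with 95% Wilson intervals) and for all 46070 regions (grey). The shares for 6 libraries are 11.7% and 13.2%.

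Regions of 1 library made up 28.2% of the 206 (95% Wilson interval 22.5 to 34.7) and 31.9% of all regions. The shares were 18.9% (14.2 to 24.8) and 17.3% for 2 libraries, 17.0% (12.48 to 22.7) and 12.47% for 3, 8.74% (5.60 to 13.4) and 11.8% for 4, and 15.5% (11.2 to 21.1) and 13.4% for 5. Common regions were 11.7% (7.96 to 16.75) and 13.2%. The whole-series share of 12.47% for 3 libraries was at the edge of the interval of the 206, and the other 5 shares fell inside. These intervals cover counting error only and treat the regions as independent, though Sema6d held 23 of the 206 and Plxna4 22. No difference is read from these shares. Both NFIB libraries had a peak in 124 of the 206 regions (60.2%, against 56.6% of all regions). Both NFIA libraries had one in 63 (30.6%, against 29.8%). Both NFIX libraries had one in 24 (11.7%, against 14.9%), and these were the 24 common regions. Regions with both NFIB libraries and no other factor numbered 23 (11.2%, against 9.73%), 5 of them at Sema6a and 3 at Plxna4. No region had both libraries of NFIA alone or of NFIX alone, patterns found in 0.0803% and 0.122% of all regions.

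The count of common regions depended on NFIX CD1. In 30 regions (14.6%, against 12.1% of all) the only library without a peak was NFIX CD1, and 2 more (0.971%, against 0.230% of all), at Plxna4 and Sema5a, lacked a peak in NFIX Mixed alone. Without NFIX CD1, 54 regions at 16 genes had a peak in all the other libraries, where 21.3% of all genes then had such a region, and the added genes were Plxnb2, Plxnc1, Plxnd1, Sema4b and Sema7a. At the 24 common regions the median fold was 11.9 (Mixed) and 12.6 (CD1) for NFIB, 9.93 (Mixed) and 8.58 (CD1) for NFIA, and 11.5 (Mixed) and 6.50 (CD1) for NFIX. Over all common regions the medians were 10.4, 11.9, 8.62, 7.96, 9.31 and 6.13 in the same library order. All 3 Mixed libraries had a peak in 71 regions (34.5%, against 34.4% of all regions) and all 3 CD1 libraries in 26 (12.6%, against 14.1%). Regions with Mixed peaks only numbered 32 (15.5%, against 19.3%) and regions with CD1 peaks only 42 (20.4%, against 19.1%). Background and list length cannot be told apart here.

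Genes that work with this system, listed with earlier results of these data known, were counted in the same way. Of 12 co-receptors and other semaphorin receptors, 10 had a region and 5 a common region (Chl1 3, Cntn2 3, Nrcam 2, Itga1 1 and Kdr 1). Of 34 intracellular effectors, 24 had a region and 7 a common region (Rnd3 3, Farp1 2, Mical2 2, Fyn 1, Gsk3b 1, Mical3 1 and Rasa1 1). Together 34 of 46 had a region, where 48.6% of all protein-coding genes had one. A common region was assigned to 12 of the 46, against the 13.2% of all genes given above. Without NFIX CD1 it was 19, against 21.3% of all genes. Their median length was 65.0 kb, against 17.4 kb for all protein-coding genes. Of all genes of 20 to under 100 kb, 58.7% had a region and 13.6% a common one. For genes of 100 kb or more the shares were 90.0% and 45.8%. The part of length in these counts was not tested. The highest-ranked region was assigned to Kdr, a VEGF receptor (chr5:75954256-75955208, 24.01 kb from its TSS, folds 7.36 to 16.3, percentile 91.4). The next were at Itga1, an integrin subunit (chr13:115050553-115051093, folds 8.53 to 14.5, percentile 89.9, closest to the TSS of Pelo), and Rasa1, a Ras GTPase-activating protein (chr13:85310881-85312003, folds 8.69 to 14.8, percentile 88.0). Then came Mical3, of a family of oxidoreductases that act on actin (chr6:121004918-121005441, folds 8.22 to 13.2, percentile 87.5), and Chl1, an adhesion molecule of the L1 family (chr6:103558684-103559799, folds 6.26 to 16.6, percentile 86.7). Farp1, an exchange factor that binds class A plexins, followed (chr14:121165553-121166130, folds 5.20 to 16.8, percentile 81.8). The co-receptor L1cam had 4 regions and none common. The related genes with no region were Erbb2, Cd72, Farp2, Rnd1, Rras, Rac1, Rhoa, Rock1, Limk2, Cfl1, Cdk5 and Sh3bp1.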

How the data were processed

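Peak lists from 6 ChIP-seq libraries were used, 1 list per library with none over pooled samples. The build mm10, Bowtie2 2.2.6, SAMtools 1.4.1 and MACS2 2.1.0 come from the submitters' processing notes. Thresholds, read filters and any use of inputs as controls were not given in the sources used here. A deposited fold is a ratio of its summit to local background, computed by the authors. The −log10 p-value and −log10 q-value of each peak are also the authors' deposited values. The highest q-value in a list ranged from 0.0411 in NFIX CD1 to 0.0492 in NFIX Mixed. The deposited score column was not used. Folds rank peaks within a list. Folds of different libraries are only set side by side, with no test, since lists differ in length and depth.

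Read totals were not in the files used, so depth was judged from summit fragments: the integer fragment count which, over some local background, gives the deposited fold (pseudocount 1) and p under a Poisson model, within 0.002 on the −log10 scale. This recovered 100% of peaks in 5 libraries and 99.991% in NFIX Mixed, and was checked on simulated data. Peaks overlapping by 1 bp or more were merged, and genes came from GENCODE M21. The members and the lists of related genes were chosen with earlier results of these data known. Every gene with a common region was named, with its highest-ranked region described, as was every gene with a promoter peak in both libraries of a factor or with no region. Of related genes, those with a common region were named, the 6 highest-ranked with values. Names beyond this rule were chosen after their values were seen. No genome sequence was used: summit windows were read from GENCODE transcripts and RefSeq promoter sequence, and promoter windows from RefSeq. Alternatives were peak overlap and joining, a stricter q-value, equal list lengths, other distance limits and promoter windows, and leaving out each library. Python 3.11.15, NumPy 2.4.6, SciPy 1.17.1 and Matplotlib 3.10.9 were used.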

Additional observations from a re-analysis of the deposited data

How the results depend on the processing

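With equal list lengths (the 7497 peaks of each library with the highest −log10 q), there were 12 common regions and 55 regions in all at the 31 genes, 17 genes had a region and 1 had a promoter peak. Then 9 genes had a common region, Plxna1 and Sema5b being lost, against 8.13% of all genes. For the genes with a region or a promoter peak no share of all genes was taken at this list length. With assignment by the closest TSS alone there were 13 common regions, at 8 genes (11.4% of all genes), Sema3a, Sema5a and Sema5b being lost. With gene bodies alone 8 genes had one (7.88%), and with a limit of 20 kb 9 (9.77%). A promoter window of 5 kb gave 16 genes with a promoter peak. The share of all genes at that window was not taken, so nothing is read from this count. Leaving out each library in turn gave 24 to 54 common regions, 11 to 16 genes with one, and 12 to 19 related genes with one. The highest of each came without NFIX CD1. The cause was not tested, beyond the fewer lists that a region then has to be in. Of these counts under the alternatives, 67 stayed within 1.5 times their value and 8 did not. Of the counts of common regions per gene, 105 were equal, 13 higher and 25 lower. No paired analysis was possible because the results are counts of regions and genes that come from no test.

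Depth limits what a missing peak means: the median summit held 21 to 28 fragments, and a gene without a peak in a library was not shown to be unbound there. Assignment names a neighbour, not a target, and 15 of the 206 regions were also assigned to another coding gene.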
